A study of Danio rerio with 8 samples.

Results

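The epidermal keratins are 8 keratin genes of the zebrafish, krt4, krt5, krt8, krt17, krt91, krtt1c19e, cyt1 and cyt1l, picked by symbol from the 32057 rows of the deposited expression table. Each symbol matched 1 row. The samples were 4 WT and 4 kat6a libraries of RNA from chondrocytes, the cells that make cartilage. All of the larvae carried Tg(sox10:EGFP), a reporter of neural crest and its derivatives, and Tg(col2a1a:mcherry), a reporter of cartilage, and the kat6a group carried kat6a in addition. Cells with both reporters were isolated by flow sorting of whole larvae 3 days after fertilisation that had been raised in 0.003% PTU at 28.5 degrees. The series design calls the kat6a chondrocytes deficient and the libraries biological replicates; the lesion in kat6a, a histone acetyltransferase gene, is not stated in the labels.

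Keratins are the intermediate filament proteins of epithelial cells. A type I keratin pairs with a type II keratin, and neither forms filaments alone, so cells express genes of both types together. In a fish larva the skin consists of an outer periderm over a basal layer that rests on the basement membrane, and its cells are held together by desmosomes, to which keratin filaments attach. Chondrocytes are not epithelial and stain chiefly for vimentin among intermediate filaments in mammals. Keratin 8 with keratin 18 is the pair of simple epithelia, and is found in vertebrates in other embryonic tissues too. Of the 8 genes, krt4, krt5 and krt8 are type II, and krt17, krt91, krtt1c19e, cyt1 and cyt1l are type I.

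Values are FPKM, fragments scaled by transcript length and by library size, as the authors deposited them, so that levels can be compared between genes per length. FPKM keeps no counts, and depth is unknown. The sum of FPKM over all genes lay between 311061 and 339307. Chondrocyte markers checked the label of the sort: 16 of 16 listed genes were present, and they made up 12.3% and 15.6% of FPKM in the WT and kat6a libraries numbered 1 and 23.2% to 26.5% in the other 6. The 2 libraries numbered 1 stand apart from the rest in that share, and WT replicate 4 stands apart in epidermal genes, so results that rest on these libraries are also given without them. The kat6a transcript itself was 31.98, 15.2, 16.3 and 18.9 FPKM across WT replicates 1 to 4, with 28.2, 11.98, 12.4 and 9.09 across the kat6a replicates, with limma adjusted p = 0.958. It was lower in the kat6a library of 4 of 4 same-numbered pairs, as were 16.3% of tested genes. With the replicate number as a block its log2 fold change of -0.46 had an unadjusted limma p of 0.0315 and an adjusted p of 0.458.

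Keratin RNA made up a small part of each library, and the genes fell into separate patterns rather than moving together. The summed level of the 8 genes was 1625, 365, 374 and 790 FPKM across WT replicates 1 to 4, with 1120, 385, 395 and 439 across the kat6a replicates. The high libraries were the ones numbered 1 in both groups, followed by WT replicate 4, and the groups overlapped. As a share of all FPKM the sum was 0.113% to 0.498%. Most of it was krt8 in 7 libraries, the exception being WT replicate 4. Without krt8 the other 7 genes summed to 154, 49.6, 97.2 and 549 FPKM across WT replicates 1 to 4, with 121, 53.0, 77.4 and 100.004 across the kat6a replicates, and WT replicate 4 was then the high library.

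**Figure D1:**
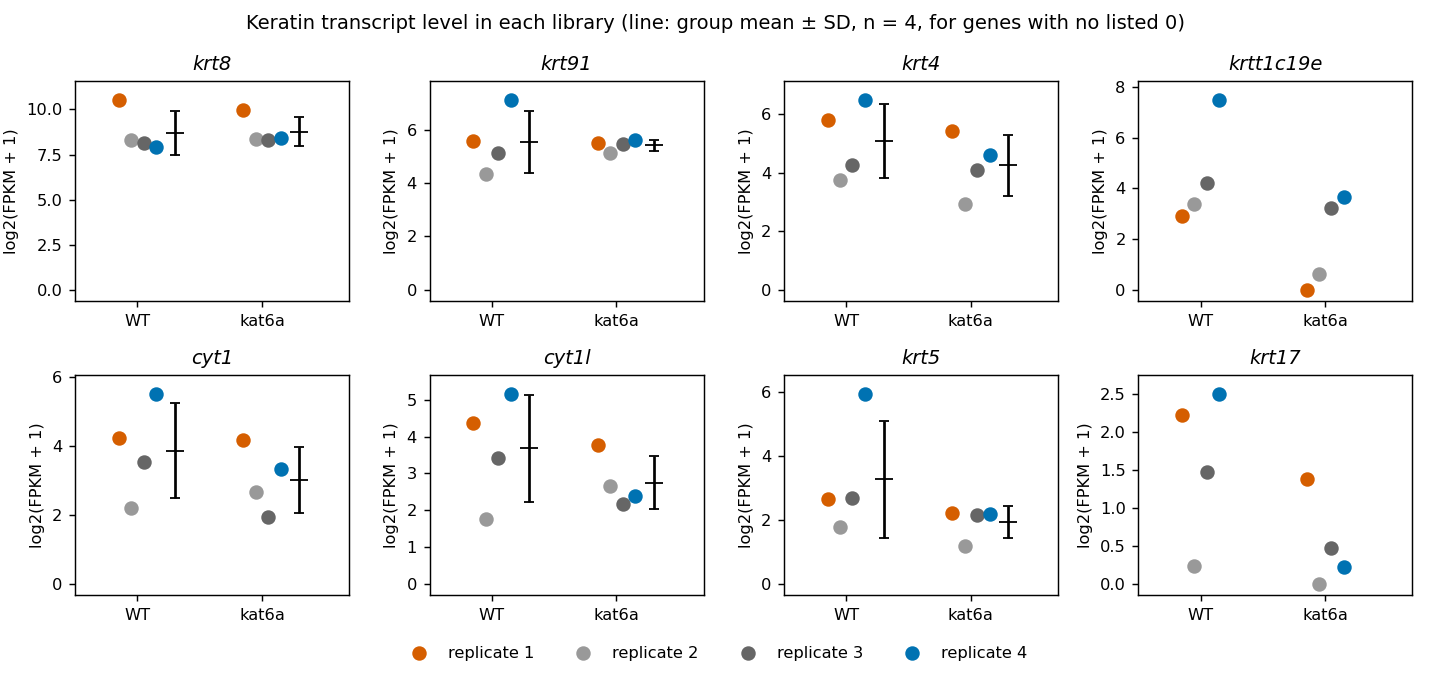
Level of each keratin gene, as log2(FPKM + 1), in the 4 WT and 4 kat6a libraries. Points are libraries coloured by replicate number, and the black line is the group mean ± SD (n = 4) where no library is listed at 0. The gene krt8 is high in both libraries numbered 1, and the other 7 genes are highest in WT replicate 4.

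The type II gene krt8 (ENSDARG00000058358) was by far the most abundant of the set. Its level was 1470, 315, 277 and 241 FPKM across WT replicates 1 to 4, with 999.5, 332, 317 and 339 across the kat6a replicates. The 2 libraries numbered 1 were high, the other 6 lay between 241 and 339 FPKM, and WT replicate 4 was the lowest of all. Ranked by FPKM within a library, krt8 stood at place 25 in WT replicate 1 and at place 174 in WT replicate 4. It was thus among the strongly detected genes of every library, whereas krt4 ranged from place 424 to 3677 and krt17 from 5217 to 13498. The level of krt8 in WT replicate 1 was 4.97 times the mean of WT replicates 2 and 3, and in kat6a replicate 1 it was 3.04 times the mean of kat6a replicates 2 to 4.

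The partner of keratin 8, encoded by krt18a.1 (ENSDARG00000018404), is no member of the set but followed krt8 closely. Its level was 1116, 251, 209 and 198 FPKM across WT replicates 1 to 4, with 844, 264, 264 and 290 across the kat6a replicates. The ratio of krt8 to krt18a.1 stayed between 1.17 and 1.33 over the 8 libraries, while the level of krt8 itself ranged 6.09-fold. Of all tested genes outside the set, krt18a.1 was the most like krt8, with a Pearson correlation of 0.998 over 8 libraries on the log2(FPKM + 1) scale. That correlation only describes these libraries, of which the 2 numbered 1 stood far above the rest for both genes. Without the libraries numbered 1 it was 0.960 over 6. In RefSeq's assembly GRCz12tu the coding gene next to krt8 on each side is krt5 and krt18a.1. The 2 neighbours of krt8 behaved differently: the correlation of krt8 with krt5 was -0.21 over 8 libraries. It was 0.39 over 7 without WT replicate 4 and -0.91 over 6 without the libraries numbered 1, so its sign depends on the libraries used. The 14 other keratins outside the set summed to only 6.48 to 80.8 FPKM per library.

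Several other genes were high in the libraries numbered 1 along with krt8, namely anxa1a, a gene of the annexin family, hbegfa, an EGF receptor ligand gene, and 2 genes of other intermediate filaments, vim for vimentin and lmna for lamin A/C. These 4 are on the gene lists used here and were picked for mention after their values were seen. FPKM of anxa1a was 228 in WT replicate 1 and 182.5 in kat6a replicate 1, against 30.5 to 44.4 in the other 6. For vim the 2 libraries had 42.0 and 34.0 FPKM, and the others 0.487 to 3.48. The cartilage collagen gene col2a1a went the other way, at 8994 and 10783 FPKM in the libraries numbered 1 and 17360 to 20538 in the rest. Not all chondrocyte genes did so, as 3 of the 16 tested were highest in WT replicate 1. The gene hapln1a was at 7.77 times the mean of WT replicates 2 and 3 in WT replicate 1. In kat6a replicate 1 it was at 3.79 times the mean of kat6a replicates 2 to 4. A high level in the libraries numbered 1 was common in the table: both stood above the other 6 for 28.5% of tested genes, 38.2% were highest in WT replicate 1 and 16.1% in kat6a replicate 1. The part of these shifts in the level of krt8 was not tested.

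The other type II genes, krt4 and krt5, were far lower than krt8. The gene krt4 (ENSDARG00000017624), whose promoter is widely used to drive transgenes in zebrafish skin, was at 54.6, 12.7, 18.4 and 88.9 FPKM across WT replicates 1 to 4, with 41.8, 6.57, 16.0 and 23.5 across the kat6a replicates. Its high libraries were WT replicate 4 and both libraries numbered 1, and the lowest of each group was replicate 2. The gene krt5 (ENSDARG00000058371), whose mammalian namesake is the keratin of basal epidermal cells, was at 5.29, 2.42, 5.42 and 60.7 FPKM across WT replicates 1 to 4, with 3.62, 1.25, 3.43 and 3.52 across the kat6a replicates. Only WT replicate 4 was high for krt5: it stood at 11.2 times the next library, and the other 7 lay between 1.25 and 5.42 FPKM. For krt4 the same factor was 1.63. The groups overlapped for both genes.

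Among the type I genes krtt1c19e (ENSDARG00000090268), a marker of basal epidermal cells in zebrafish, had the widest range. It was at 6.58, 9.42, 17.7 and 178 FPKM across WT replicates 1 to 4, with 0, 0.535, 8.50 and 11.8 across the kat6a replicates. WT replicate 4 was at 10.1 times the next library, and kat6a replicates 1 and 2 were low. Unlike krt4 and krt8, krtt1c19e was not raised in the libraries numbered 1: WT replicate 1 was 0.486 times the mean of WT replicates 2 and 3, and kat6a replicate 1 was listed at 0.

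The type I gene krt91 (ENSDARG00000036830) was high in WT replicate 4 and varied over a narrower range in the other 7. Its level was 47.1, 19.0, 33.6 and 137 FPKM across WT replicates 1 to 4, with 44.0, 34.1, 42.9 and 47.7 across the kat6a replicates. Apart from WT replicate 4 every library lay between 19.0 and 47.7 FPKM, and the kat6a values spanned a narrow range inside that of WT. After krt8 it was the most abundant of the 8 genes in kat6a, at 42.2 ± 5.77 FPKM (SD, n = 4), with krt4 next at 22.0 ± 14.9. In WT krt91 stood at 59.2 ± 53.1, krtt1c19e at 53.0 ± 83.7 and krt4 at 43.6 ± 35.4, with differences well inside the spread of each.

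The closely related type I genes cyt1 (ENSDARG00000092947) and cyt1l (ENSDARG00000036832) had similar levels and profiles. The level of cyt1 was 17.6, 3.55, 10.5 and 44.4 FPKM across WT replicates 1 to 4, with 16.9, 5.29, 2.79 and 9.09 across the kat6a replicates. That of cyt1l was 19.5, 2.39, 9.80 and 34.9 FPKM across WT replicates 1 to 4, with 12.7, 5.26, 3.45 and 4.23 across the kat6a replicates. Both were highest in WT replicate 4, and within the kat6a group both were highest in replicate 1. Their ratio lay between 0.809 and 2.15, and their correlation was 0.949 over 8 libraries and 0.905 over 7 without WT replicate 4. Such copies can share reads, so the division of reads between cyt1 and cyt1l is uncertain.

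The lowest member was krt17 (ENSDARG00000094041), a type I keratin gene. It was at 3.64, 0.175, 1.77 and 4.64 FPKM across WT replicates 1 to 4, with 1.604, 0, 0.386 and 0.165 across the kat6a replicates. WT replicates 4 and 1 were the high libraries, WT replicate 2 lay at the low end with kat6a replicates 2 to 4, and the groups overlapped. With a mean of 1.55 FPKM over the 8 libraries it was still above the filter for testing, a mean of at least 0.5, so that 8 of 8 members were tested. In the GRCz12tu order of coding genes all 5 type I members lie in 1 run of neighbours, in the order krtt1c19e (there named krt1-19e), krt92, cyt1l, cyt1, krt17 and krt91. The genes of this run did not share 1 profile. The end genes krtt1c19e and krt91 had a correlation of 0.582 over 8 libraries and of -0.16 over 7 without WT replicate 4, against 0.944 and 0.912 for cyt1l and krt17.

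These values fall into 3 profiles, described here after they were seen. The gene krt8 was high only in the libraries numbered 1. The genes krt4, cyt1, cyt1l and krt17 were raised both there and in WT replicate 4: WT replicate 1 stood at 2.502 to 3.75 times the mean of WT replicates 2 and 3, and WT replicate 4 at 4.79 to 6.30 times that mean. The genes krt91, krt5 and krtt1c19e were raised mainly in WT replicate 4, to 5.21, 15.5 and 13.2 times the same mean, against 1.79, 1.35 and 0.486 times in WT replicate 1. Over the 6 libraries not numbered 1, krt4 correlated with krtt1c19e at 0.970 and with krt5 at 0.961, whereas over the 7 libraries without WT replicate 4 the correlation of krt4 with krtt1c19e was 0.0078 and that of krt4 with krt5 was 0.782.

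**Figure D2:**
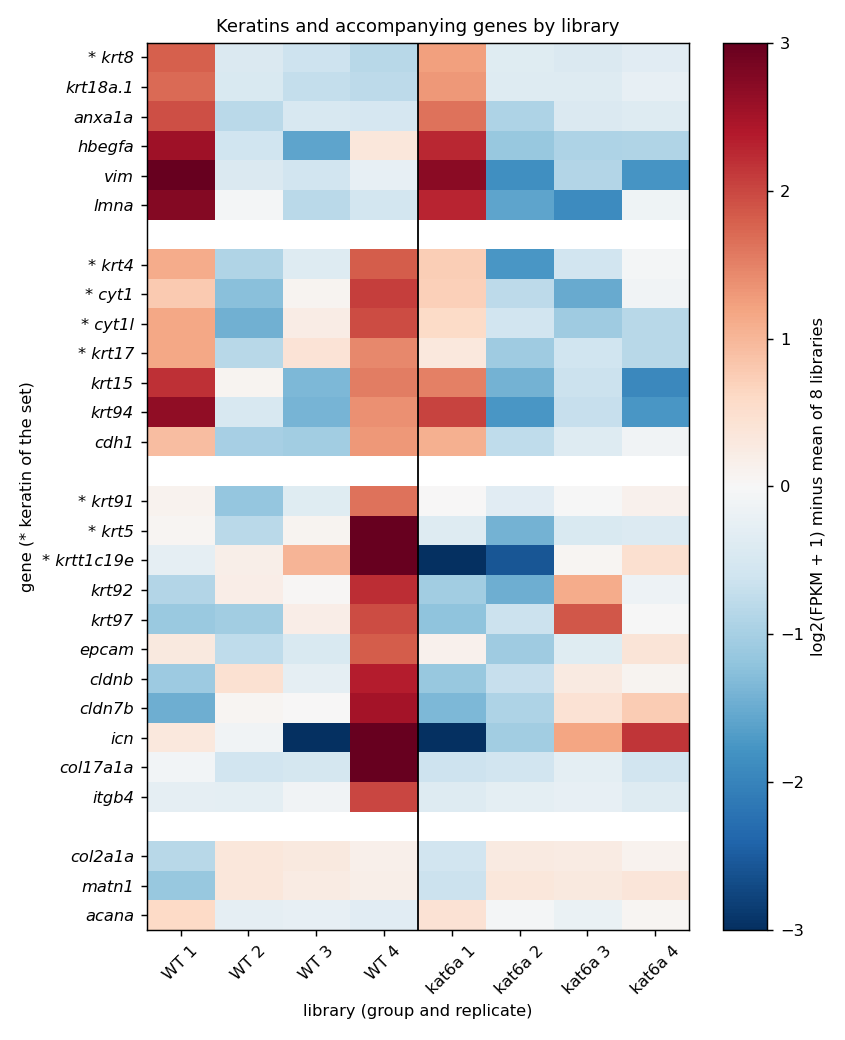
Heat map of log2(FPKM + 1) minus the gene's mean over the 8 libraries (columns), for the 8 keratins of the set (asterisks) and other genes of the lists, picked after their values were seen; colours stop at -3 and 3. Upper rows are high in both libraries numbered 1, and middle rows there and in WT replicate 4. Lower rows are highest in WT replicate 4, though krt97 and krt92 are also raised in kat6a replicate 3 and icn in kat6a replicate 4. In the last rows col2a1a and matn1 are low in the libraries numbered 1.

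Most keratins of the set were highest in WT replicate 4. Of the 8 keratins, 7 had their highest level in WT replicate 4, while 14.1% of the 11763 tested genes did. In 6 of the 8, WT replicate 4 was at least 1.5 times every other library, which held for 3.45% of tested genes. WT replicate 4 supplied 84.1% of the summed WT level of krtt1c19e, 82.2% of that of krt5 and 57.9% of that of krt91. For krt8 its share was 10.5%. A single library gives no error for such an excess, and no test was made of it.

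Some genes of the skin other than keratins were highest in the same library. Of the 12 tested periderm genes that are not keratins, 9 were highest in WT replicate 4. Among them icn, for the calcium-binding protein ictacalcin, was at 148 FPKM there and at 0 to 41.0 elsewhere, and the claudin gene cldni at 16.9 against 0.612 to 3.42. The tight junction gene cldn1 was at 6.29 FPKM in WT replicate 4 and listed at 0 in the other 7 libraries. In its list of desmosome and tight junction genes, 6 of 13 tested genes were highest in WT replicate 4 and 5 in WT replicate 1. The 5 were all desmosome genes, namely dspa, dsc2l, jupa, pkp1b and pkp3b. The 6 were dsg2.1 and pkp3a of desmosomes and cldn1, cldn7b, oclna and f11r.1 of tight junctions. Of the rest, perp was highest in kat6a replicate 1 and tjp3 in WT replicate 2. Over all tested genes, 14.1% were highest in WT replicate 4, 38.2% in WT replicate 1 and 16.1% in kat6a replicate 1. In the basal epidermis list 5 of 11 tested genes that are not keratins were highest in WT replicate 4, 4 in WT replicate 1 and 1 in kat6a replicate 1. Those highest in WT replicate 4 included col17a1a, for a hemidesmosome collagen, at 15.2 against 0.125 to 0.627 FPKM elsewhere. Another was itgb4, for its integrin partner, at 4.31 against 0 to 0.217. The genes cldn1, col17a1a and itgb4 passed the filter for testing only through their level in WT replicate 4. Of the other basal genes, lama5 was at 6.91 FPKM in WT replicate 1 and 2.15 in WT replicate 4. The gene frem2b was lowest in WT replicate 4, at 0.158 FPKM. The summed level of the basal list without keratins was 42.0, 13.0, 15.3 and 90.5 FPKM across WT replicates 1 to 4, with 31.8, 10.23, 17.4 and 23.7 across the kat6a replicates.

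The periderm list summed to 320, 67.7, 58.2 and 319 FPKM across WT replicates 1 to 4, with 251, 46.6, 94.5 and 105 across the kat6a replicates without its keratin. Its excess in the libraries numbered 1 came chiefly from anxa1a and hbegfa, whose levels there were 228 and 56.7 FPKM in WT. Of the periderm list, klf17 and icn2 were listed at 0 in all 8 libraries. Of 19 ionocyte and mucous cell markers, 6 were listed at 0 in all 8 libraries and 5 passed the filter, of which 4 were highest in WT replicate 4. The margins of these 4 differed. For rhbg the level was 18.3 FPKM there against 0 to 6.74 elsewhere, but for the proton pump gene atp6v1ba only 8.23 against 5.63 to 7.79. In the fin fold list 3 of 6 tested genes were highest in WT replicate 4, and among keratins outside the set 3 of 9. No notochord gene of the 5 tested was highest there, and 1 of 16 chondrocyte genes was. The share highest in WT replicate 4 over all tested genes was 14.1%. The part of skin cells in the keratin levels was not tested, and in bulk RNA more cells of a type cannot be told apart from more RNA per cell.

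**Figure D3:**
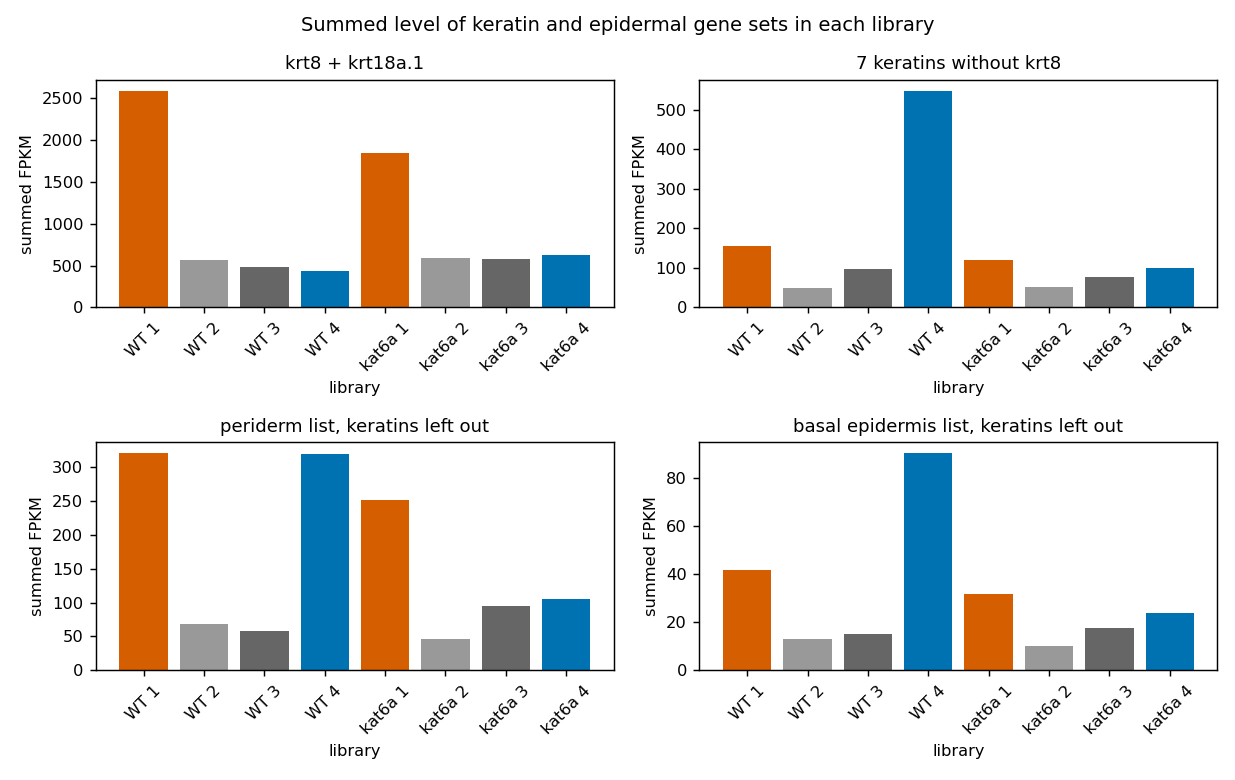
Summed FPKM per library for krt8 with krt18a.1, for the other 7 keratins, and for the periderm and basal epidermis lists with their keratins left out. Bars are single libraries, coloured by replicate number; the sum of krt8 and krt18a.1 is high in both libraries numbered 1, and the sum of the 7 keratins reaches 549 FPKM in WT replicate 4 against at most 154 elsewhere.

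Genes outside the set were ranked by how closely they followed the mean profile of the 8 keratins over the 8 libraries. The most alike was phlda2, with a Pearson correlation of 0.937, followed by nlgn2a, rhag, arrb2a and coro1ca, at 0.933 to 0.930. The epithelial adhesion gene epcam came next, at 0.927, then nfe2l1a, znf362a and fa2h, and the integrin gene itga6b was the last of the 10 named, at 0.919. The level of epcam was 16.6, 7.46, 9.33 and 49.4 FPKM across WT replicates 1 to 4, with 14.6, 5.86, 10.17 and 17.7 across the kat6a replicates, again with WT replicate 4 as the high library. These correlations share libraries and describe them only. Only genes passing the filter of a mean of at least 0.5 FPKM were ranked. The genes nlgn2a, rhag, fa2h and itga6b passed it only through WT replicate 4, where they stood at 1.001, 2.24, 1.88 and 2.71 FPKM. That library also shapes the keratin profile, so the place of these low genes in the ranking is no separate evidence.

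For single keratins the most alike gene was lgals9l3 for krt4, at 0.976, rhag for krt5, at 0.985, and abhd18 for krtt1c19e, at 0.971. It was ythdf2 for krt17, at 0.960, klhdc10 for krt91, at 0.965, coro1ca for cyt1, at 0.984, and cirbpa for cyt1l, at 0.971. Of these, rhag passed the filter only through WT replicate 4, which is the high library for krt5 too. The alike genes can stand at quite different levels: cirbpa ran from 176 to 265 FPKM, while cyt1l ran from 2.39 to 34.9.

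The comparison of kat6a with WT called no keratin of the set. By limma on log2(FPKM + 1), with Benjamini-Hochberg adjustment over the 11763 tested genes, 0 of 8 members were called at an adjusted p under 0.05, where 0.017% of tested genes were called, all of them lower in kat6a. At an unadjusted p under 0.05 limma gave 1 member that was lower, krtt1c19e, and none that was higher, against 3.92% of tested genes lower and 0.646% higher. The groups overlapped for all 8 members, while they did not for 2.57% of tested genes on the lower side and 0.561% on the higher side. The log2 fold change was below 0 for 7 of 8 members (6 under median-ratio scaling, 8 under upper-quartile scaling), with a median of -0.89, but it was also below 0 for 69.5% of tested genes, whose median was -0.16.

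The largest difference was that of krtt1c19e, with a log2 fold change of -2.62 ± 1.08 (SE), a 95% interval of -5.03 to -0.20 and limma adjusted p = 0.958. An exact permutation test of this gene over the 4 against 4 libraries gave a two-sided p of 0.143, where 0.0286 is the smallest possible. Its kat6a library was lower than the WT library of the same number in 4 of 4 pairs, with differences on the log2(FPKM + 1) scale of -2.92, -2.76, -0.97 and -3.81. Its value also rests on a listed 0 in kat6a replicate 1. With the replicate number as a block, which leaves the estimate unchanged, the SE fell to 0.42 and the unadjusted limma p to 0.000489, with adjusted p = 0.230. An unadjusted p that low or lower was reached by 25 of 11763 genes in the blocked fit, or 0.213%. Without WT replicate 4 the log2 fold change was -1.62 ± 0.88, a move of over 1.5 times, with an unadjusted limma p of 0.0979. Without kat6a replicate 1 it was -1.99 ± 1.07, with an unadjusted limma p of 0.0941. Without both libraries numbered 1 it was -2.52 ± 1.11, with an unadjusted limma p of 0.0518.

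The next differences were those of krt5 and krt17, at -1.34 ± 0.76 (SE) and -1.08 ± 0.51, with limma adjusted p = 0.958 for each and an exact permutation p of 0.114 for each. Without WT replicate 4 krt5 stood at -0.44 ± 0.39, a move of over 1.5 times, and krt17 at -0.79 ± 0.52. With a pseudocount of 0.1 in place of 1, the order of the 2 genes turned, with krt17 at -2.17 ± 1.11 and krt5 at -1.54 ± 0.86. Both were lower in kat6a in 4 of 4 pairs. For krt5 the pairs numbered 1 to 3 had kat6a levels of 0.684, 0.515 and 0.634 times WT, and the pair numbered 4 of 0.0579 times. Lower in 4 of 4 pairs were 4 of the 8 members, krtt1c19e, krt4, krt5 and krt17, as were 16.3% of tested genes.

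The differences of krt4, cyt1 and cyt1l were alike in size, at -0.83 ± 0.66 (SE), -0.84 ± 0.67 and -0.94 ± 0.66, with limma adjusted p = 0.958 for each. Exact permutation p was 0.343, 0.343 and 0.314. Single libraries moved them by over 1.5 times. Without WT replicate 4 they were -0.36 ± 0.63, -0.29 ± 0.60 and -0.44 ± 0.61, and without WT replicate 2 they were -1.26 ± 0.64, -1.40 ± 0.59 and -1.58 ± 0.50. Without kat6a replicate 2 krt4 stood at -0.38, and without kat6a replicate 3 cyt1 stood at -0.47. With the replicate block, krt4 had a 95% interval of -1.48 to -0.17 and krt17 of -1.95 to -0.21, so that 3 members had an unadjusted limma p under 0.05 on the lower side and 0 on the higher side, where 8.31% and 2.09% of tested genes did. The blocked limma adjusted p was 0.451 for each of krt4 and krt17, and 0 of 8 members were called, against 0.0085% of tested genes.

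The smallest log2 fold changes of the set were those of krt8 and krt91. For krt8 the log2 fold change was 0.051 ± 0.57 (SE), with a 95% interval of -1.22 to 1.33 and an exact permutation p of 0.886, and its sign turned in several other fits. With the block, which takes out the shared rise in the libraries numbered 1, the interval was -0.34 to 0.44. Leaving out both of those libraries gave 0.25 ± 0.13, with an unadjusted limma p of 0.0796 and adjusted p of 0.782. For krt91 the log2 fold change was -0.11 ± 0.48, with an exact permutation p of 0.886. Without WT replicate 4 its sign turned, to 0.41 ± 0.30, with an unadjusted limma p of 0.204, and it turned too under median-ratio scaling and with array weights.

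**Figure D4:**
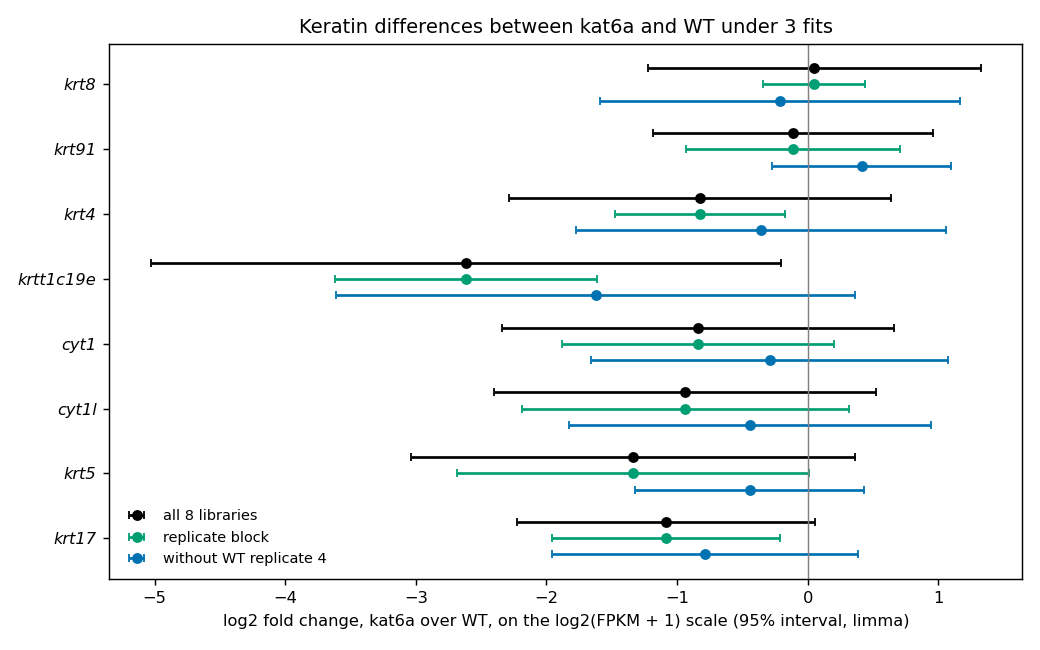
Log2 fold change of each keratin, kat6a over WT, with its 95% limma interval, with all 8 libraries, with the replicate number as a block, and without WT replicate 4. Leaving out WT replicate 4 brings krt5 from -1.34 to -0.44 and turns krt91 from -0.11 to 0.41.

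In the authors' deposited table the fold of WT over kat6a was 7.33 for krtt1c19e, 2.08 for krt5 and 1.53 for krt17. The same table gave 1.19 for krt4, 1.28 for cyt1, 1.29 for cyt1l, 0.664 for krt8 and 0.905 for krt91. A fold below 1 is higher in kat6a, so krt91 differed in direction from its limma log2 fold change of -0.11. For the 8 genes the p-values ran from 0.129 to 0.824 and the q-values from 0.877 to 0.953 in the authors' deposited table.

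Of the 15 other keratin genes in the table, 9 passed the filter, and 0 were called by limma or had an unadjusted p under 0.05. Their median log2 fold change was -0.034. Of all tested genes limma called 0.017%, and at an unadjusted p under 0.05 it gave 3.92% lower and 0.646% higher. The genes krt15 and krt94 were high in the libraries numbered 1 and in WT replicate 4, at 16.4, 3.00, 0.497 and 10.1 FPKM for krt15 in WT and 9.90, 0.434, 1.43 and 0 in kat6a. The neighbour of krtt1c19e, krt92, was highest in WT replicate 4, at 26.0 FPKM, and next in kat6a replicate 3, at 11.7. The genes krt93, krt95, krt98 and krt99 were listed at 0 in all 8 libraries.

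Other genes of skin showed no calls either. Of 13 tested periderm genes, 12 basal epidermis genes, 13 desmosome and tight junction genes and 5 ionocyte and mucous cell genes, limma called 0, against 0.017% of all tested genes. Of these genes 0 had an unadjusted limma p under 0.05, against 3.92% lower and 0.646% higher over all tested genes. The median log2 fold changes of these lists, in the same order, were -0.66, -0.44, -0.55 and -0.29, against -0.16 for all tested genes. Without WT replicate 4 the medians were -0.17, -0.44, -0.22 and -0.080, and that of all tested genes was -0.17. Over the 8 keratins of the set the median went from -0.89 to -0.40. Without WT replicate 2 that median was -1.47, against -0.21 for all tested genes. In that fit 5 of the 8 keratins had an unadjusted limma p under 0.05 on the lower side, against 3.39% of tested genes. This was the largest such count of any fit, with 0 to 3 in the others, and 0 of the 8 were called. The smallest p in the periderm list was that of ppl, for the desmosomal linker periplakin, at a log2 fold change of -0.90 ± 0.49 (SE, limma adjusted p = 0.958), and in the basal list that of krt15, at -1.23 ± 0.87. In the desmosome list it was that of dsc2l, a desmocollin gene, at -0.76 ± 0.46.

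Of the other lists, 6 fin fold genes were tested, with a median of -0.62, and fbln1, at -0.94 ± 0.40 (SE, limma adjusted p = 0.958), had an unadjusted p under 0.05. Without WT replicate 4 that median was -0.084. Notochord genes had a median of -0.088 over 5, other intermediate filament genes of -0.18 over 9, and chondrocyte genes of 0.10 over 16. None of these genes was called by limma, against 0.017% of all tested genes.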

How the data were processed

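Per the file headers, the authors deposited FPKM per gene and library together with their own p-value, q-value and fold. The direction of the fold, a ratio of WT over kat6a, was taken from the values, as the header does not give it. The submitters' processing notes name HISAT2, StringTie and GRCz10. Versions, settings, annotation and use of strand were not given in the sources used here, and multi-copy genes may share reads. All 8 value columns were matched to samples by the library index, which leaves 0 unmatched. For WT replicate 4 the title was followed, since its library name repeats the number 3. Keratins were found by the symbol in the table; the 8 gene IDs were found in a table of gene names, 7 with the same symbol, and krtt1c19e there as krt1-19e. Neighbours come from RefSeq's GRCz12tu, another build, so no coordinates are given.

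On log2(FPKM + 1), limma (version 3.58.1, R 4.3.3) with an intensity trend compared the groups over 11763 genes, those whose FPKM averaged at least 0.5. Tests were two-sided, and a gene was called where the Benjamini-Hochberg adjusted p was under 0.05. Fold changes on this scale understate the change of low genes. The test was checked on simulated data with independent noise, where changes were put only into genes of small spread between libraries. The keratins had a larger spread, so that check does not cover them. Depth is unknown, so no counting interval was computed; an exact 0 is given only as a listed value. The labels do not say from which clutches the samples came, so p-values measure the spread between these samples.

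Same-numbered libraries of the 2 groups deviated together from their group means, with r = 0.589, 0.347, 0.127 and 0.151 for pairs 1 to 4. Each was over 0.1, so a fit with the number as a block is given where it matters. No r was computed for libraries of different number, so these values cannot show that same-numbered libraries were paired. The sample titles number the libraries and state no pairing. The keratins and the 8 gene lists were chosen with earlier results of these data known. Of 133 list symbols, 13 were not found as a single row. Genes named are the keratins, from each list up to 4 genes of smallest p, and those most alike in profile; other genes, in the skin and library comparisons too, were chosen after their values were seen. Alternatives were another pseudocount (0.1), other filters, scalings, array weights, the block and leaving out libraries.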

Additional observations from a re-analysis of the deposited data

Results flagged for a closer look

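In groups of 4, a library was marked when its gap to the nearest other library, as a share of the group's range, exceeded Dixon's 95% critical value. Of 20 groups examined, 8 held such a library. The rate of about 1 group in 20 by chance holds for normally distributed values, while unlogged FPKM were used here. The rate over all tested genes was not computed, so the count of 8 has no baseline. The genes share libraries, so the groups are not independent. WT replicate 4 was marked for krtt1c19e, at 178 FPKM, and for krt5, at 60.7 FPKM. WT replicate 1 and kat6a replicate 1 were marked for krt8, at 1470 and 999.5 FPKM, and for krt18a.1, at 1116 and 844 FPKM. The sum of the 8 keratins was marked in kat6a replicate 1, at 1120 FPKM. On the low side, krt5 was marked in kat6a replicate 2, at 1.25 FPKM.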

How the results depend on the processing

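No keratin of the set was called by limma in any of 20 other fits, 18 of them planned, and the lowest adjusted p was 0.230. Of 160 refitted log2 fold changes 147 kept their direction. Those of krt8 turned to -0.064 under upper-quartile scaling, -0.087, -0.15 and -0.21 when WT replicate 2, 3 or 4 was left out, -0.35 without kat6a replicate 1 (range over single libraries left out -0.35 to 0.65), and -0.095 with the pair numbered 4 left out, with or without the replicate block, an alternative chosen after seeing the data. Those of krt91 turned to 0.046 under median-ratio scaling, with or without the replicate block, 0.076 with array weights, 0.41 without WT replicate 4 (range over single libraries left out -0.51 to 0.41) and 0.35 with the pair numbered 4 left out, again with or without the block. The cause was not tested. The count of called genes over the whole table was 2, against 1 with the replicate block, 1 with a pseudocount of 0.1, 1 under upper-quartile scaling, 0 without a filter, 0 under median-ratio scaling, with or without the block, 0 under quantile normalisation, 14 with array weights, 4 without both libraries numbered 1, 1 with the pair numbered 4 left out, with or without the block, and 0 to 5 without any 1 library. Scaling moved the median log2 fold change over tested genes from -0.16 to -0.041 (median-ratio), -0.0022 (quantile) or -0.23 (upper-quartile). The mean summed level of the 8 keratins, 788 ± 592 FPKM for WT and 585 ± 358 for kat6a (SD, n = 4), moved by less than its SD under each scaling and without any 1 library, but by over 1.5 times for WT without its replicate 1, to 509.6 FPKM. With 4 libraries a group and intervals up to several log2 units wide, moderate differences were not detectable.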
